A study of Homo sapiens with 346 samples.

Results

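Methanol-fixed cells of HCT-116, a human colorectal carcinoma line, were ranked by the level of 10 mitotic genes, and the 30 cells at the top of the ranking were set against the 30 cells at the bottom. The score was the mean of log2(TPM + 1) over TOP2A, MKI67, CCNB1, CDC20, PLK1, AURKA, CENPF, UBE2C, BUB1 and TPX2, where TPM is the length-corrected abundance of a gene, scaled to transcripts per M (1 M is 1e6). The 60 high-score and low-score cells were taken from 92 fixed HCT-116 cells with values, out of 334 cells in the whole series, and the 32 cells between them are called middle-score cells. Both groups were selected on the score, so the values of these 10 genes are given only to describe the selection, and every other gene is described as it lay beside it.

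The series holds single cells of HCT-116 and of a line labelled HepG2, sequenced live or after fixation with the Smart-seq2 method, which primes on the poly(A) tail and copies whole transcripts. Cells of both lines were trypsinized, and live and fixed cells were sorted as singlets by forward scatter. Before sorting, fixed cells of both lines were stored in 80% methanol at -80 °C for 1 week and rehydrated. Live cells were stained with propidium iodide before sorting. The labels give no further treatment for either line. The HCT-116 experiment was performed once, so the fixed cells count as 1 sample. Single cells of 1 sample do not replicate a condition, and no test between the groups was made. Each share of cells given in percent comes with a 95% Clopper-Pearson interval, which reflects counting error alone.

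Cells that divide copy their DNA in S phase and separate the copies in mitosis. Cyclin-dependent kinases with cyclins A and B drive entry into mitosis, the kinases of the Aurora and Polo families and the kinesin motors build the spindle, kinetochores tie chromosomes to it, and the anaphase-promoting complex then marks securin and the mitotic cyclins for destruction. Many of these transcripts are made late in the cycle and are cleared as cells return to G1, whereas genes for DNA replication are switched on earlier, at the passage from G1 to S phase, by E2F factors. Tumour lines in culture divide without being in step, so single cells at all stages of the cycle are sampled together.

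The labelled line was first checked against markers. The epithelial genes KRT8, KRT18, KRT19 and EPCAM were detected in all 92 fixed HCT-116 cells, with mean levels of 1138, 1406, 766 and 402 TPM. CDX2, an intestinal transcription factor, was detected in 56 cells at a mean of 5.44 TPM, and CDH17 and CEACAM5, further intestinal genes, had means of 0.0264 and 0.0571 TPM. Of 3 hepatocyte, 2 leukocyte and 2 fibroblast markers, the most abundant were SERPINA1 at a mean of 1.45 TPM (9 cells), PTPRC at 0.0517 TPM (6 cells) and COL1A1 at 0.39 TPM (25 cells). Among 4 luminal breast markers, KRT7, a keratin of many simple epithelia, had a mean of 5.67 TPM in 52 cells, ESR1 0.741 TPM in 76 cells and GATA3 0.32 TPM in 8 cells, and PGR was at 0 in all 92.

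The score ran from 0.366 to 7.78 with a median of 5.08. Low-score cells had a median score of 1.38 and high-score cells a median of 6.99. The highest low-score cell stood at 3.32 and the next cell above it at 3.67, while the lowest high-score cell stood at 5.92 and the next cell below it at 5.83. Since 11 cells lay within 0.5 of the lower limit and 13 within 0.5 of the upper limit, the groups are ranges of a continuous score rather than separate types. Among the 10 genes, UBE2C, the ubiquitin-conjugating enzyme of the anaphase-promoting complex, had a median of 12.3 TPM (range 0 to 88.5) in low-score and 848 TPM (range 95.6 to 2014) in high-score cells. BUB1, a spindle checkpoint kinase, was detected in 7 of 30 low-score cells and in all 30 high-score cells. The 45 pairs of the 10 genes had Spearman correlations between 0.60 and 0.92 across the 92 cells, with a median of 0.79, over cells of 1 experiment that differ in depth.

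**Figure D1:**
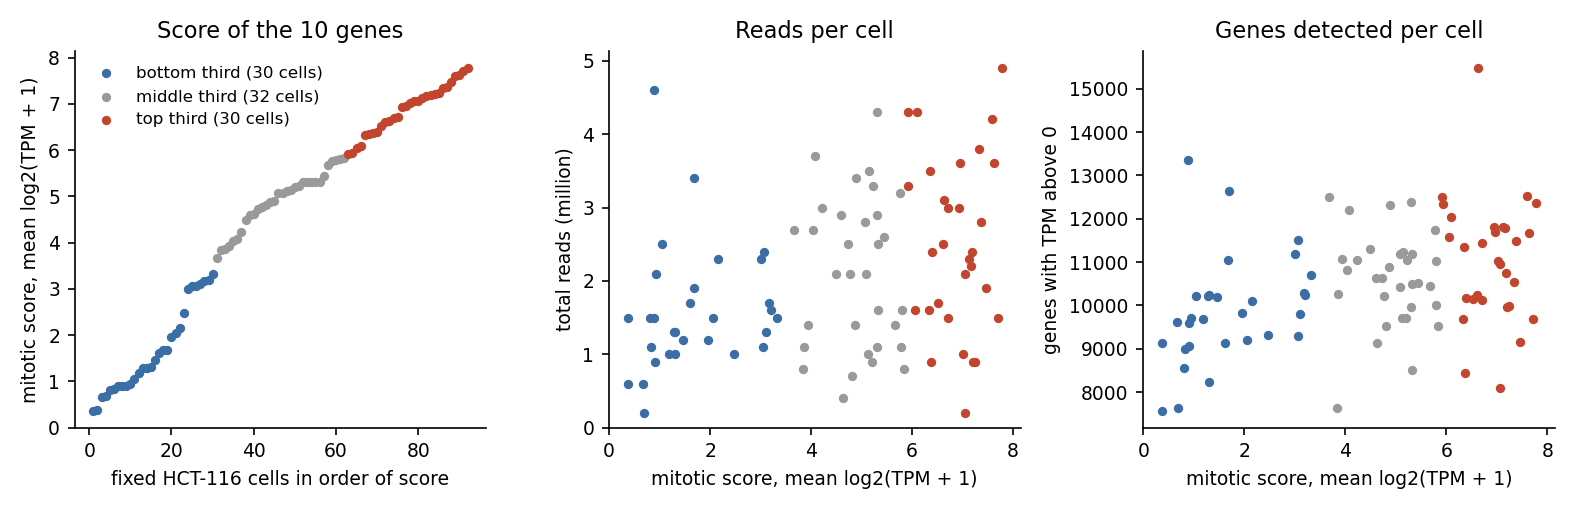
Each point is 1 of the 92 fixed HCT-116 cells, coloured by its position in the ranking (30 bottom, 32 middle and 30 top cells). The left panel shows the mitotic score, mean log2(TPM + 1), in rank order, and the other panels show total reads (M) and the number of genes with a TPM above 0 against the score. High-score cells had a median of 2.4 M reads and 11184 genes, low-score cells 1.5 M and 9757.5.

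Depth moved with the score. Median total reads were 1.5 M in low-score, 2.1 M in middle-score and 2.4 M in high-score cells, and the shallowest cells of the low-score and high-score groups each had 0.2 M. Median genes detected were 9757.5, 10642 and 11184 in the same order. With reads thinned to 500000 per cell, which left out 1 cell of each group, the median number of listed transcripts detected was 13029 in low-score, 14586 in middle-score and 15290 in high-score cells, against 14821.5, 16974.5 and 18448 before thinning. Ribosomal RNA took a median of 8.94% of the TPM in low-score and 7.77% in high-score cells. The single entry MIR4461 took a median of 9.79% in low-score and 9.33% in high-score cells. Over all 92 cells it ran from 0.480 to 28.3%, and it was not taken out of the TPM in any setting. MALAT1 and NEAT1 together took a median of 0.126% and 0.0914% of the TPM in these groups. The median share of reads assigned was 83.2% in low-score and 85.1% in high-score cells. Counts of genes with cells ranked within groups of like reads or like detection, among deeper cells and without ribosomal RNA are given with the comparison. A single high-score cell stood apart with 15483 genes at 3.1 M reads, where the next cell had 13363, and the counts of genes are therefore also given without it.

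Of 7100 genes with a mean of at least 5 TPM over the fixed cells, the 10 score genes left out, 1062 were higher in high-score cells by 1 or more in mean log2(TPM + 1), which is 15% of them, and 89 were lower by 1 or more, which is 1.25%. These shares are the background for every list that follows. The filter used the mean over all fixed cells, so a gene near 0 in low-score cells could pass through its level in other cells. Such a gene could then only be called higher, and the reverse held for genes near 0 in high-score cells. CENPA and CDC25C, with means of 6.75 and 8.44 TPM over the fixed cells, were at 0 in low-score cells. The counts of the lists rest in part on such members. The median of all 7100 differences was 0.37, so most genes leaned towards the high-score cells, and differences are best read relative to that value. Taken relative to it, 529 genes were higher and 262 lower by 1 or more. When each cell was rescaled with a median ratio taken over widely detected genes, 643 were higher, and the higher genes made up 79.6% of those called instead of 92.3%. Without the cell with 15483 genes 1023 were higher, and the 89 lower genes were all still called. When cells were ranked within each of 2 equal groups by total reads, which gave median reads of 1.8 M on both sides but median genes detected of 10207.5 and 10643.5, 842 genes were higher and 95 lower. Ranked within 2 such groups by genes detected, with median reads of 1.5 M and 2.15 M, 699 genes were higher and 83 lower. Among cells with at least 1 M reads, 26 on each side, 991 genes were higher and 89 lower. With ribosomal RNA taken out of the TPM, 1103 of 7367 genes were higher and 99 lower, and 1054 of the 1062 higher genes were still called. Of 61 genes named by rule that differed by 1 or more, 7 came below 1 when cells were ranked within groups by genes detected, namely HAUS8, LIN9, DDB2, HIST1H4C, KRT19, KRT7 and CCNE2. Of the 1062 higher genes, 257 differed by 2 or more and 51 by 4 or more, while 5 of the 89 lower genes differed by 2 or more. Middle-score cells lay between the other groups for 835 of the 1062 higher genes, and for 215 of them they had the highest mean of all.

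The largest difference was that of DLGAP5, a spindle assembly protein. Its TPM in low-score cells had a lowest value and a median of 0 and a highest value of 5.81, against 29.4, 91.6 and 229 in high-score cells. It was detected in 5 of 30 low-score cells (16.7%, interval 5.64 to 34.7%) and in all 30 high-score cells (interval 88.4 to 100%). The groups did not overlap, and the difference in mean log2(TPM + 1) was 6.26. AURKB, the kinase of the chromosomal passenger complex, ran from 0 to 39.3 TPM in low-score cells with a median of 0, and from 3.41 to 347 TPM with a median of 198 in high-score cells. No low-score cell reached the high-score median, and the difference was 6.11. KIF2C, a kinesin that takes microtubules apart at kinetochores, ran from 0 to 25.8 TPM with a median of 0 in low-score cells and from 23.9 to 170.96 TPM with a median of 85.1 in high-score cells, a difference of 5.89.

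The other genes among the 20 largest differences were, when genes seen in under 50% of fixed cells are passed over, NCAPG, NUSAP1, KIF20A, NEK2, CDK1, CCNA2, PBK, NUF2, CDCA3, RRM2, NDC80, PRC1, HMMR, BUB1B, HMGB2, CCNB2 and DEPDC1B, with differences from 5.84 for NCAPG, a subunit of condensin, to 5.13 for DEPDC1B. Most of them code for parts of the spindle, the kinetochore or the mitotic kinase circuit. RRM2, the small subunit of ribonucleotide reductase that makes DNA precursors, and HMGB2, an abundant chromatin protein, are the ones best known from other roles. HMGB2 had a median of 20.9 TPM in low-score cells, 319 in middle-score and 737 in high-score cells.

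**Figure D2:**
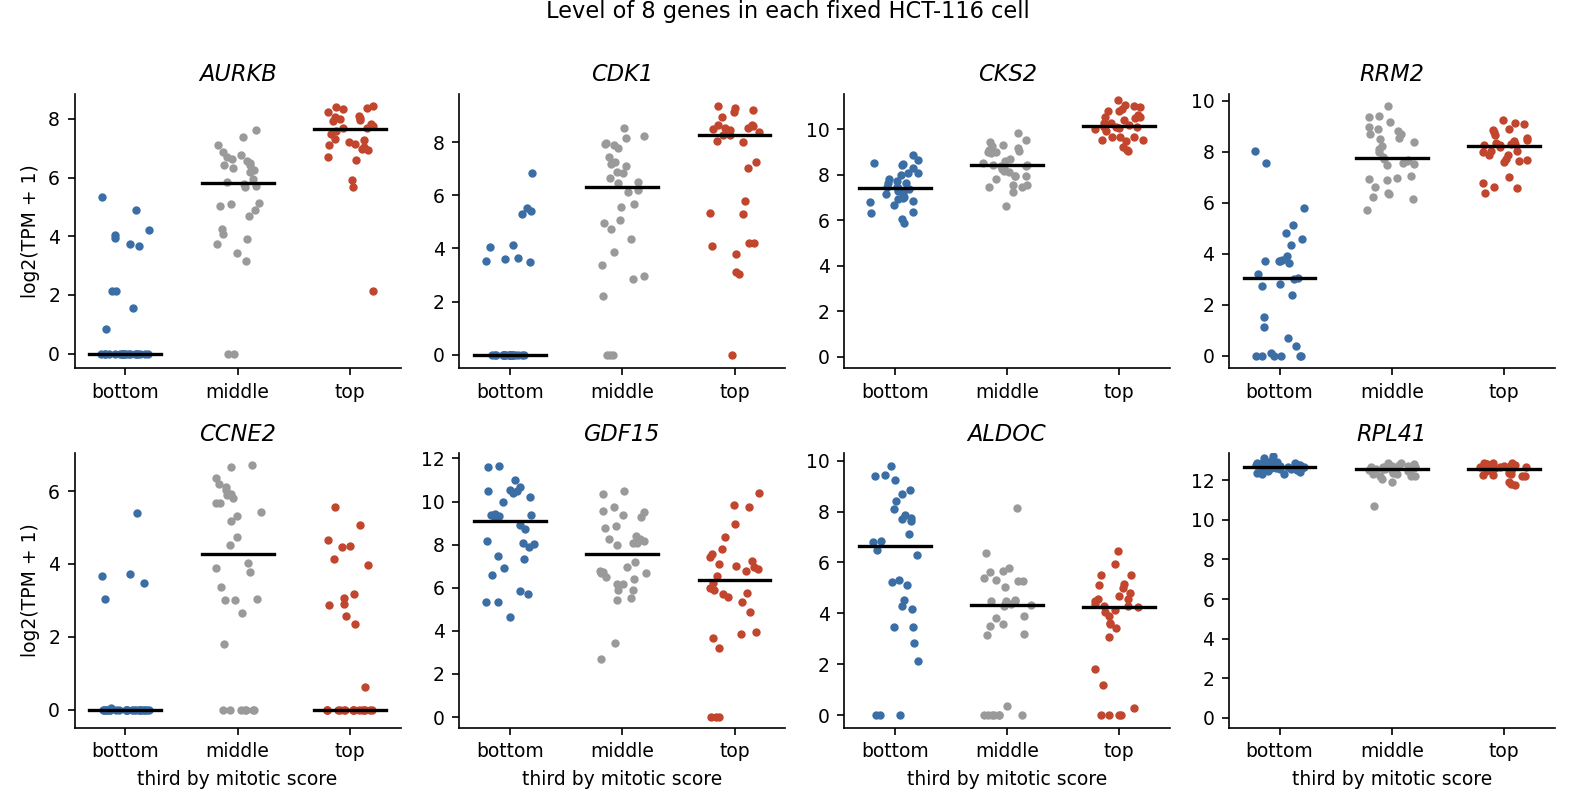
Each point is the log2(TPM + 1) of a gene in 1 fixed HCT-116 cell, with the cells split by mitotic score into 30 bottom, 32 middle and 30 top cells, and black lines mark medians. AURKB, CDK1 and CKS2 step up across the groups, RRM2 is nearly as high in the middle as at the top, CCNE2 is highest in the middle, GDF15 and ALDOC are highest at the bottom, and RPL41 is nearly level.

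Among the mitotic cyclins, kinases and their regulators, 28 of 29 compared genes were higher in high-score cells and none was lower, against the 15% and 1.25% of all genes, and their median difference was 3.92. CDK1, the kinase that drives mitotic entry, was detected in 10 low-score, 29 middle-score and 29 high-score cells, with medians of 0, 79.4 and 306 TPM. A single high-score cell was at 0, and the highest low-score cell had 112.6 TPM, so the groups overlapped. CCNA2, a cyclin of S phase and early mitosis, had medians of 0.182, 25.2 and 116.4 TPM in low-score, middle-score and high-score cells. CCNB2, a B-type cyclin, had medians of 9.12, 85.3 and 199 TPM, and its highest low-score cell, at 66.6 TPM, lay below its lowest high-score cell, at 87.9 TPM. CKS2, a small subunit bound to cyclin-dependent kinases, was the most abundant member, with 172.1 TPM (range 58.9 to 462) in low-score and 1142 TPM (range 536 to 2535) in high-score cells and no overlap between them. The mean of CKS2 was 6.36 times higher in high-score cells. The exception in the list was CDC25B, a phosphatase that activates CDK1, with medians of 21.1 and 34.9 TPM and a difference of 0.92. LIN9, a subunit of the complex that controls late cell cycle genes, had the smallest difference among those past 1, at 1.28.

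Mitotic kinesins and spindle proteins gave a like picture, with 31 of 32 genes higher, none lower and a median difference of 3.99. A low-score cell had a median of 14 of these 32 genes detected, a middle-score cell 27 and a high-score cell 32. Their mean level in log2(TPM + 1) was 1.67 in low-score, 3.72 in middle-score and 5.402 in high-score cells. STMN1, a protein that destabilizes microtubules and the most abundant member, had medians of 216 and 636 TPM in low-score and high-score cells, a difference of 1.94. HAUS8, of the augmin complex that branches spindle microtubules, overlapped widely between the groups, with medians of 1.17 and 16.2 TPM and a difference of 1.32. KIF2A, a kinesin that works outside mitosis too, had 7.45 and 6.57 TPM and a difference of 0.24, below the median of all genes.

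In the kinetochore and spindle checkpoint list, 35 of 37 genes were higher and none lower, with a median difference of 3.28. NUF2 and NDC80, which together form the microtubule-binding arm of the kinetochore, were detected in 4 and 6 low-score cells and in all 30 high-score cells, with high-score medians of 64 and 70.2 TPM and differences of 5.31 and 5.25. BUB3, a checkpoint protein with other roles in the nucleus, was present in all cells, with medians of 94.7 TPM at low score and 379 TPM at high score and a difference of 1.89. MIS12 and PMF1, subunits of the kinetochore's MIS12 complex, differed by 0.64 and 0.68, with medians of 7.90 and 12.1 TPM for MIS12 and 43.3 and 50.01 TPM for PMF1.

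The anaphase-promoting complex and its partners were mixed, with 7 of 16 genes higher (43.8%), none lower and a median of 0.81. PTTG1, the securin that holds sister chromatids together until anaphase, had a median of 30.1 TPM in low-score cells, 280 in middle-score and 525 in high-score cells, and FBXO5, an inhibitor of the complex, was detected in 13, 26 and 25 cells of these groups. Core subunits were found on both sides of 1. CDC23, ANAPC7, CDC27 and CDC16 were higher, by 2.15, 1.53, 1.02 and 1.01, as was UBE2S, a ubiquitin-conjugating enzyme of the complex, by 2.61. ANAPC16 and ANAPC13 differed by -0.01 and 0.19, with high-score medians of 65.97 and 67.7 TPM. Among condensin and cohesin genes, 12 of 18 were higher and none lower, with a median of 2.18. NCAPG and NCAPH, subunits of the condensin complex that acts in mitosis, differed by 5.84 and 4.67. Cohesin genes were mixed. ESCO2, an enzyme that acetylates cohesin, and CDCA5, a protein that keeps cohesin on chromatin, differed by 4.34 and 3.72, and the cohesin subunits RAD21 and SMC1A by 1.605 and 1.34. STAG1, another subunit, and ESCO1, the other acetylating enzyme, differed by 0.35 and -0.31.

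Tubulins, the building blocks of microtubules, were higher for 11 of 14 genes, with a median of 1.77. TUBB4B had 58.1 TPM in low-score and 402 TPM in high-score cells, and TUBA1B 246 and 1698 TPM, with differences of 3.04 and 2.75. TUBB3 and TUBB4A, known mainly from the nervous system, differed by 0.62 and 0.55. Tubulin genes are close copies of each other, and how reads were shared between them is uncertain. Among genes of the nuclear lamina and envelope, 8 of 17 were higher and the median was 1.00. LMNB1, a B-type lamin, was detected in 9 low-score and 30 high-score cells and differed by 3.17, while LMNA, the gene of the A-type lamins, had 53.2 and 54.1 TPM and EMD, the gene of emerin, 32.8 and 30.7 TPM. NUP107, a nuclear pore subunit, differed by 3.23.

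**Figure D3:**
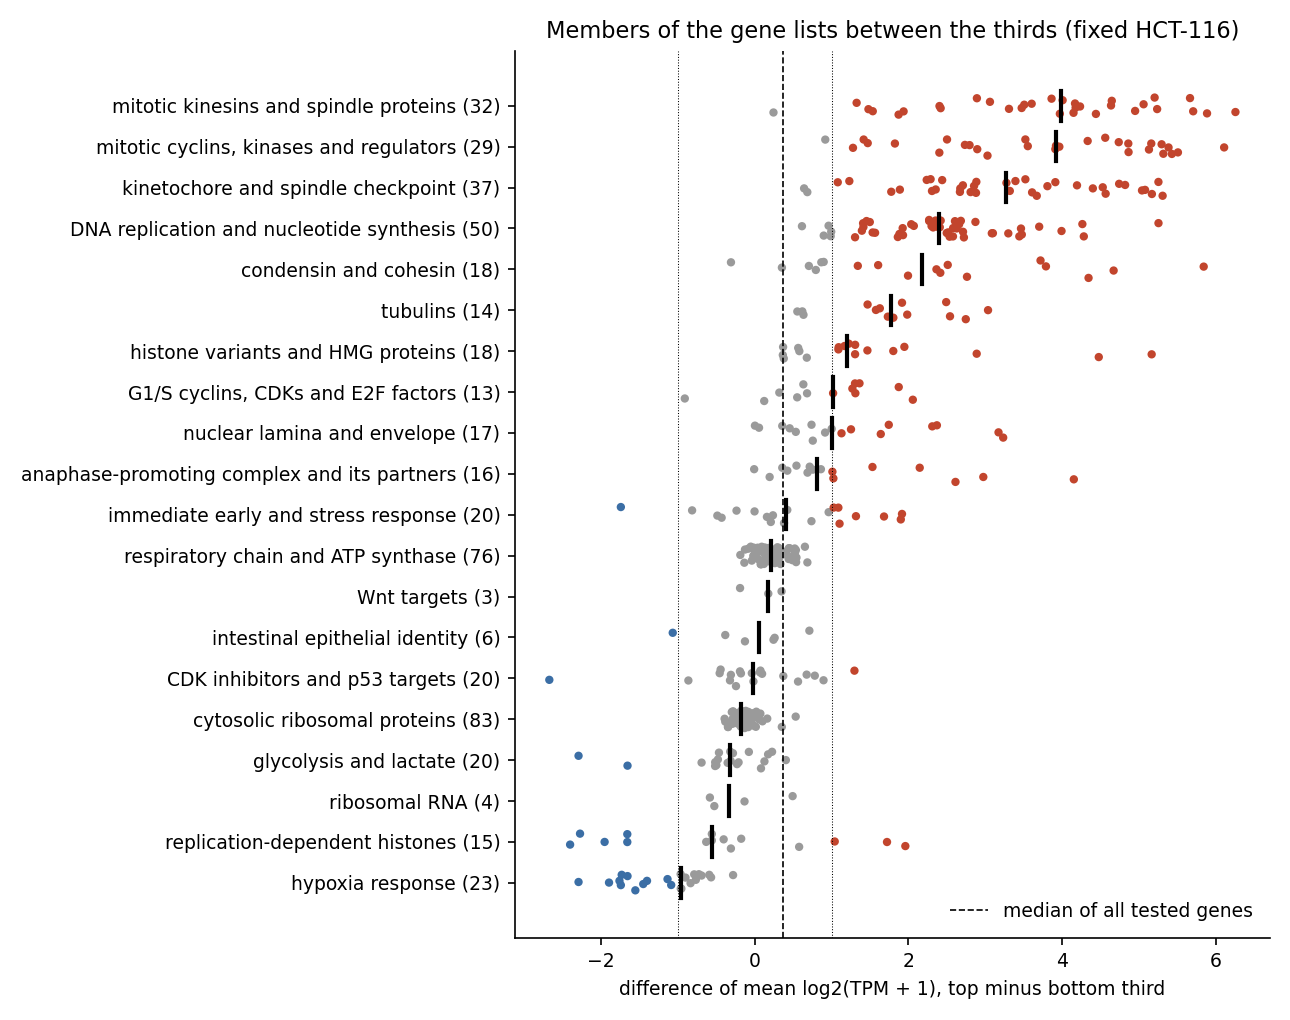
Each point is the difference of mean log2(TPM + 1), high-score minus low-score cells, for 1 gene of a list, with the number of genes compared in parentheses. Black bars are list medians, the dashed line is the median of all 7100 genes (0.37), and dotted lines mark differences of 1 and -1. Mitotic lists have medians of 3.28 to 3.99, ribosomal protein genes lie close together around -0.18, and the hypoxia-response list is centred at -0.97.

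Genes for DNA replication and nucleotide synthesis followed another course. High-score cells were higher than low-score cells by 1 or more for 45 of 50 genes, with a median of 2.40. The middle-score cells, however, stood as high as the high-score cells. By the ratio of mean TPM the list median was 1.53. The mean level of the list in log2(TPM + 1) was 2.90 ± 1.27 (SD over 30 cells) in low-score, 5.48 ± 0.821 (SD over 32 cells) in middle-score and 5.29 ± 0.567 (SD over 30 cells) in high-score cells. For 32 of the 50 genes the middle-score cells had the highest mean, against 29.4% of all genes compared, 2 of 32 kinesin and spindle genes, 1 of 29 mitotic cyclins and kinases, 5 of 37 kinetochore genes and 42 of 76 respiratory chain genes. RRM2 had medians of 7.13, 214 and 295 TPM in low-score, middle-score and high-score cells, and 24 of 30 low-score cells had it detected. PCNA, the sliding clamp of DNA polymerases, had medians of 47.9, 237 and 242 TPM and ran from 0 to 390 TPM in low-score cells, so that the groups overlapped. TK1, the thymidine kinase of the salvage pathway and the most abundant member, had 136.5, 444 and 457 TPM. ORC6, of the origin recognition complex, was detected in 13, 26 and 30 cells and differed by 4.28. CDT1, which loads the replicative helicase in G1, had 0.402, 6.23 and 2.33 TPM, and RFC1, of the clamp loader, 12.9, 27.4 and 25.1 TPM, and these were the smallest differences in the list, at 0.61 and 0.90. For CDT1 the value was 0.072 when cells were ranked within groups by genes detected and 1.37 with a pseudocount of 0.1.

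Single cells showed how loosely replication genes followed the score. Of the low-score cells, 3 of 30 (10.0%, interval 2.11 to 26.5%) had a mean replication level above 5, and the same held for 22 of 32 middle-score cells (68.8%, interval 49.99 to 83.9%) and 22 of 30 high-score cells (73.3%, interval 54.1 to 87.7%). The level of 5 was chosen after the values were seen. The highest low-score cell had a replication level of 5.89, above the high-score median of 5.41.

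**Figure D4:**
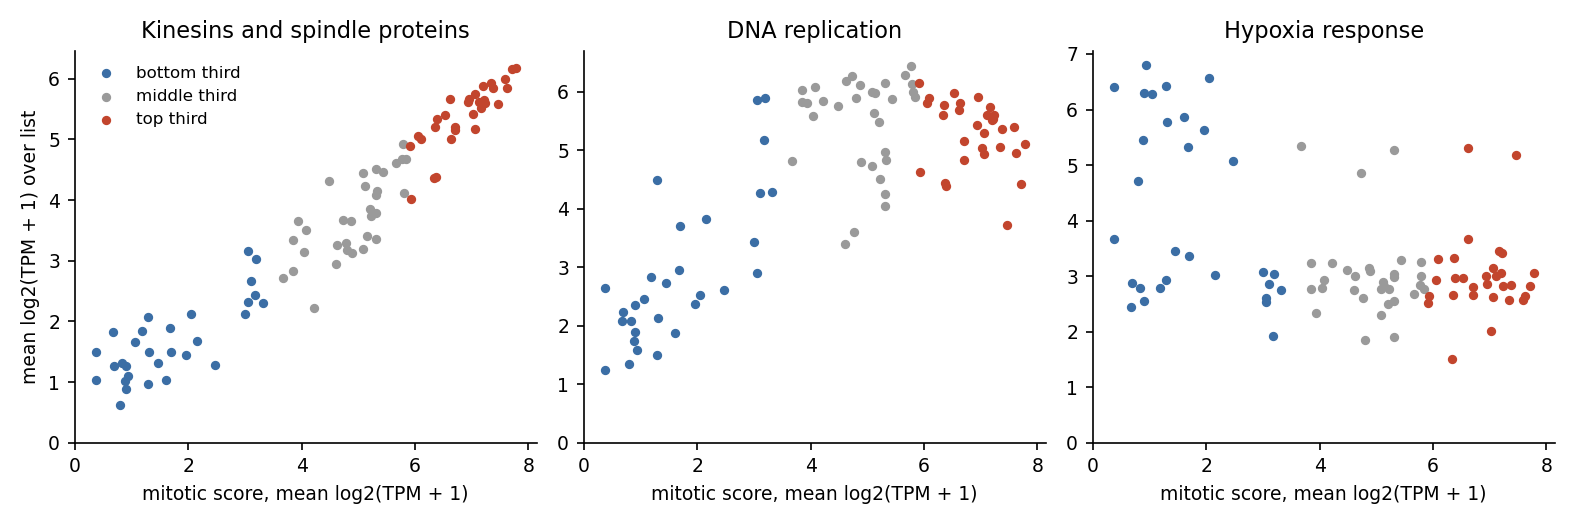
Each point is 1 fixed HCT-116 cell, with its mitotic score on the horizontal axis and the mean log2(TPM + 1) of a gene list on the vertical axis. Kinesin and spindle genes climb along the whole score, DNA replication genes climb to the middle-score cells (mean 5.48) and are no higher in the high-score cells (5.29), and the hypoxia-response genes reach above 4.5 in 13 low-score, 3 middle-score and 2 high-score cells.

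In the list of cyclins, kinases, E2F factors and pocket proteins of the G1 to S passage, 7 of 13 genes were higher, none was lower, and the median was 1.02. The higher genes were the cyclins CCND3 and CCNE2, the kinase CDK2, and E2F4, E2F6, E2F8 and TFDP1, which are E2F factors or their partner. Ranked within groups by genes detected, the median was 0.55 and the difference of CCNE2, which is 1.02 as reported, was 0.13. CCNE2, an E-type cyclin that activates CDK2 at the start of S phase, was detected in 6 of 30 low-score, 25 of 32 middle-score and 14 of 30 high-score cells, with medians of 0, 18.5 and 0 TPM. CCNE1, its close relative, was detected in 12, 25 and 13 cells, with medians of 0, 9.02 and 0 TPM. Both were therefore highest in the middle-score cells. CDK2 itself had 13.9, 62.4 and 54.2 TPM, and E2F8, a repressor of the E2F family, was detected in 7, 21 and 20 cells. CCND1 and CDK4, which act earlier in G1, had medians of 55.4 and 79.7 TPM and of 110.5 and 171.1 TPM in low-score and high-score cells, with differences of 0.55 and 0.68. TFDP2, a partner of E2F factors, had 17.2 TPM in low-score and 10.1 TPM in high-score cells, a difference of -0.91.

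Since genes of the late cell cycle and genes of replication took different courses, their promoters were searched for short sequences known from cell cycle promoters. These were the cell cycle homology region or CHR (TTTGAA or TTCGAA), the CCAAT box (CCAAT) and E2F sites (TTTGGCGC, TTTCCCGC, TTTCGCGC or TTTGCCGC), on both strands, in the 250 bases before and 50 after each RefSeq start (GRCh38.p14). TTCGAA reads the same on both strands, and no motif contains another whole. Of the genes of the 3 mitotic lists, 82 of 98 matched a promoter by name. A CHR was present in 57.1% of their windows and in 35 of the 50 windows of genes that differed by 4 or more, against 16.4% of all 35116 windows in the reference. Over all 1062 higher genes, 81.4% of which matched, 19.7% of the windows had one. Replication genes, with 44 of 50 matched and 63 windows, had a CHR in 6.35% and an E2F site in 36.5%. E2F sites were present in 11.4% of the windows of the mitotic lists and in 3.31% of all windows. CCAAT boxes were present in 61.9% of the windows of the mitotic lists, 50.8% of those of the replication list and 34.6% of all windows. Ribosomal protein genes, with 67 of 83 matched, had a CHR in 15.7% and an E2F site in 4.82% of 83 windows. Of all genes compared, which passed the same filter as the lists, 79.9% matched. Their 8096 windows had a CHR in 12.2%, an E2F site in 5.82% and a CCAAT box in 36.2%. Of the 89 lower genes 65.2% matched, and no share is given for them. A match is a description of letters in a window and shows no binding.

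The 100 bases before the start are shown for CDK1 (chr10:60778378-60778477, plus strand) and CCNB2 (chr15:59105046-59105145, plus strand), which climb with the score and carry both CHR and CCAAT letters, and for PCNA (chr20:5126623-5126722, minus strand) and CDT1 (chr16:88803689-88803788, plus strand), which are as high or higher in middle-score cells and carry an E2F site. PCNA also carries CCAAT letters. They are written 5′ to 3′ on the strand of the gene, with capitals for the motifs on either strand.
CDK1: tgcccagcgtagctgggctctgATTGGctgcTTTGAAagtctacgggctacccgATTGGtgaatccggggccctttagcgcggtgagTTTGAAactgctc
CCNB2: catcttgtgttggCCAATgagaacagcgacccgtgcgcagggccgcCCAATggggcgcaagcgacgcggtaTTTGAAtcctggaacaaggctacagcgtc
PCNA: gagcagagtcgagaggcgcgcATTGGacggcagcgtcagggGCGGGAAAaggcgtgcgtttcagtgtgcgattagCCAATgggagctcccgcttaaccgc
CDT1: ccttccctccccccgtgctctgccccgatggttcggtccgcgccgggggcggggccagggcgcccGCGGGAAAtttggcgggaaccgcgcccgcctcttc
In CDK1 the CHR letters begin 69 and 13 bases before the start, and the CCAAT letters 78 and 46 bases before it. In CCNB2 the CHR begins 29 bases before the start, with CCAAT boxes at 87 and 54 bases. In PCNA the CCAAT letters begin 79 and 25 bases before the start. The E2F letters begin 59 bases before the start in PCNA and 35 bases before it in CDT1. CDK1 and PCNA each have 2 RefSeq starts, and the window with more matches is shown.

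Genes higher by 1 or more in low-score cells numbered 89 against 1062, or 262 against 529 relative to the median of all genes. The largest such difference, by the same rule on detection, was that of GDF15, a secreted growth factor made by cells under stress and a target of p53, with 555 TPM (range 24.04 to 3253) in low-score, 198 TPM in middle-score and 82.6 TPM (range 0 to 1337) in high-score cells. The difference in mean log2(TPM + 1) was -2.68, and 25 of 30 low-score cells lay above the high-score median, although the ranges overlapped. The rest of the 10 largest by that rule were HIST1H2BK, ALDOC, TNFRSF10D, GPRC5C, NDRG1, GLRX, PNRC1, DDIT4 and ADM, with differences from -2.41 to -1.73. ALDOC, a glycolytic aldolase, had 99.2 TPM (range 0 to 896) in low-score cells, 19.3 in middle-score and 18.2 (range 0 to 87.02) in high-score cells. TNFRSF10D, a decoy receptor for the death ligand TRAIL, had 25.1, 15.1 and 4.61 TPM, and GLRX, the redox enzyme glutaredoxin, 87.2, 20.9 and 25.3 TPM. GPRC5C, an orphan receptor, was detected in 27 low-score and 13 high-score cells. In 61 of the 89 lower genes the means stepped down from low-score through middle-score to high-score cells.

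ALDOC, NDRG1, DDIT4 and ADM are known to be induced by low oxygen, so a list of 30 hypoxia-response genes was drawn up after their values had been seen, and its counts are no independent evidence. Of its 23 compared members, 11 were lower in high-score cells (47.8%, against 1.25% of all genes) and none was higher, with a median of -0.97. Of these 23 genes, 4 belong to other lists used here, and the other 19 had a median of -0.97 as well, with 8 of them lower. DDIT4, an inhibitor of the growth kinase mTORC1, had 166.2, 70.9 and 47.7 TPM in low-score, middle-score and high-score cells. ADM, a vasodilator peptide, had 15.2, 6.77 and 5.02 TPM with a highest low-score cell at 1005 TPM. SLC2A1, the main glucose transporter of many tumour lines, had 61.7 TPM (range 6.15 to 789) in low-score and 16.9 TPM (range 3.58 to 138.5) in high-score cells, a difference of -1.66. The smallest differences were those of ERO1A and P4HA2, enzymes of protein folding and of collagen, at -0.28 and -0.57. For ERO1A the value was -1.78 by the ratio of mean TPM and 0.065 with a pseudocount of 0.1.

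Low-score cells were uneven in this respect. The mean level of the list was above 4.5 in 13 of 30 low-score cells (43.3%, interval 25.5 to 62.6%), 3 of 32 middle-score cells (9.38%, interval 1.98 to 25.02%) and 2 of 30 high-score cells (6.67%, interval 0.818 to 22.1%). That level was chosen after the values were seen. The median low-score cell stood at 3.41 and the highest at 6.79, against a median of 2.89 and a highest value of 5.31 in high-score cells.

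Glycolysis genes had a median of -0.32, with 2 of 20 lower and none higher. That median was -0.69 relative to all genes, -0.59 after rescaling by the median ratio and -0.17 when cells were ranked within groups by genes detected. Those 2 were ALDOC and SLC2A1, which are also in the hypoxia-response list. GAPDH, the most abundant, had 7405, 6084 and 5709 TPM, a difference of -0.47, and SLC16A1, a lactate transporter, differed by 0.40. Among inhibitors of cyclin-dependent kinases and p53 targets, 1 of 20 genes was higher, 1 was lower and the median was -0.03. CDKN1A, which encodes the inhibitor p21, had 22.9, 28.9 and 18.2 TPM in low-score, middle-score and high-score cells and differed by -0.45, with a highest low-score cell of 1539.9 TPM. By the ratio of mean TPM it was -2.06 on the log2 scale, and with 46 cells on each side the difference was 0.068, so its size and sign depended on the setting. DDB2, a repair gene under p53, was the higher gene at 1.30, and GDF15 was the lower.

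Histone genes split. Replication-dependent histone mRNAs end in a stem-loop and mostly lack the poly(A) tail on which Smart-seq2 primes. Of 58 listed genes 15 passed the filter in fixed HCT-116 cells, against 18 in live HCT-116 cells and 35 and 34 in fixed and live cells labelled HepG2. Of these 15, 3 were higher and 5 lower, with a median of -0.56. HIST1H2BK had 57, 20.03 and 15.5 TPM and HIST1H2BD was detected in 17, 6 and 9 cells, with differences of -2.41 and -2.28. HIST1H4C, the most abundant, had 334, 513 and 666 TPM and differed by 1.04. HIST2H2BC and HIST1H2AJ differed by 1.96 and 1.72. HIST2H4A and HIST2H4B had equal values in every cell, as did HIST2H2AA3 and HIST2H2AA4, and with each pair counted once 4 of 13 were lower, 3 higher and the median was -0.41. With 46 cells on each side the median over the 15 genes was -0.014, and by the ratio of mean TPM it was -1.99. Variants made outside S phase and HMG proteins were higher for 12 of 18 genes and lower for none, with a median of 1.19. H2AFZ, the variant H2A.Z, had 650 TPM in low-score and 2124 TPM in high-score cells, ASF1B, a histone chaperone, differed by 4.48, and H3F3A and H1F0 differed by 0.36 and 0.37, near the median of all genes.

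None of 83 cytosolic ribosomal protein genes differed by 1, their median was -0.18 and they lay between -0.39 for RPS27 and 0.53 for RPL26L1. The median was -0.55 relative to all genes and -0.47 after rescaling by the median ratio. RPL41, the most abundant, had 6512, 5951 and 6048 TPM. Their summed level was 176831 ± 22998 TPM (SD over 30 cells) in low-score and 156526 ± 18116 TPM (SD over 30 cells) in high-score cells. None of 76 nuclear genes of the respiratory chain and ATP synthase differed by 1 either, with a median of 0.21 that became -0.16 relative to all genes and -0.08 after rescaling by the median ratio. COX7C, the most abundant, had 1429 and 1588 TPM. The 4 ribosomal RNA genes compared had a median of -0.33.

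Immediate early and stress genes had a median of 0.40, near that of all genes, with 7 of 20 higher and 1 lower. FOSL1, a subunit of the AP-1 factor, had 28.1, 53.8 and 99.9 TPM and differed by 1.92, KLF10 had 20.03, 24.9 and 67.6 TPM and differed by 1.90, and the chaperone HSPA8 had 524, 1425 and 1213 TPM and differed by 1.32. DDIT3, a factor of the unfolded protein response, had 70.9, 27.2 and 38.9 TPM with a difference of -0.82. For DDIT3 the value was -1.94 by the ratio of mean TPM and 0.034 when cells were ranked within groups by genes detected. Among intestinal epithelial genes, KRT19 was lower, with 1121, 609 and 523 TPM and a difference of -1.07, while KRT18 differed by 0.26, CDX2 by 0.71 and CDH1 by -0.39. KRT7, the single luminal breast gene compared, had 6.69 and 0 TPM and differed by -1.18. The Wnt-related genes CD44, TCF7L2 and SOX9 differed by -0.19, 0.17 and 0.35. The reference gene ACTB had 3057, 3745 and 3674 TPM, a difference of 0.36.

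The reference transcripts of the 1062 higher genes (97.9% with a value) had a median length of 2499 bases and a median GC content of 44.8%, those of the 89 lower genes (95.5% with a value) 1872 bases and 53.1%, and those of all genes compared 2569 bases and 46.5%.

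The 91 live HCT-116 cells, ranked by their own score, were not used in the selection. Among 7273 genes, 701 were higher (9.64%) and 59 lower (0.811%) in their 30 high-score cells against 30 low-score cells, with a median of 0.30. Median reads were 2 M in their low-score and 2.7 M in their high-score cells. Of 6673 genes compared in both treatments, 1031 were higher in fixed and 633 in live cells, and 474 were higher in both, which is 45.97% of the fixed and 74.9% of the live genes. Of 78 genes lower in fixed and 52 lower in live cells, 27 were shared, which is 34.6% of the fixed and 51.9% of the live genes, and 2 genes lower in fixed cells were higher by 1 or more in live cells. AURKB differed by 6.18 in live and 6.11 in fixed cells, CDK1 by 4.58 and 5.43, RRM2 by 4.05 and 5.26, and CKS2 by 3.12 and 2.73. The kinesin and spindle list had 33 of 34 genes higher in live cells with a median of 3.59, and the replication list 42 of 50 with a median of 1.65. GDF15 differed by -1.38 in live cells, ALDOC by -1.79, DDIT4 by -1.52 and SLC2A1 by -0.61. The hypoxia-response list had a median of -0.61 in live cells, with 5 of 23 genes lower, and its mean level was above 4.5 in 9 of 30 low-score, 2 of 31 middle-score and 1 of 30 high-score live cells. Whether live and fixed cells differed in any of these was not tested, and storage and staining, which went with the treatment, cannot be told apart from fixation.

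**Figure D5:**
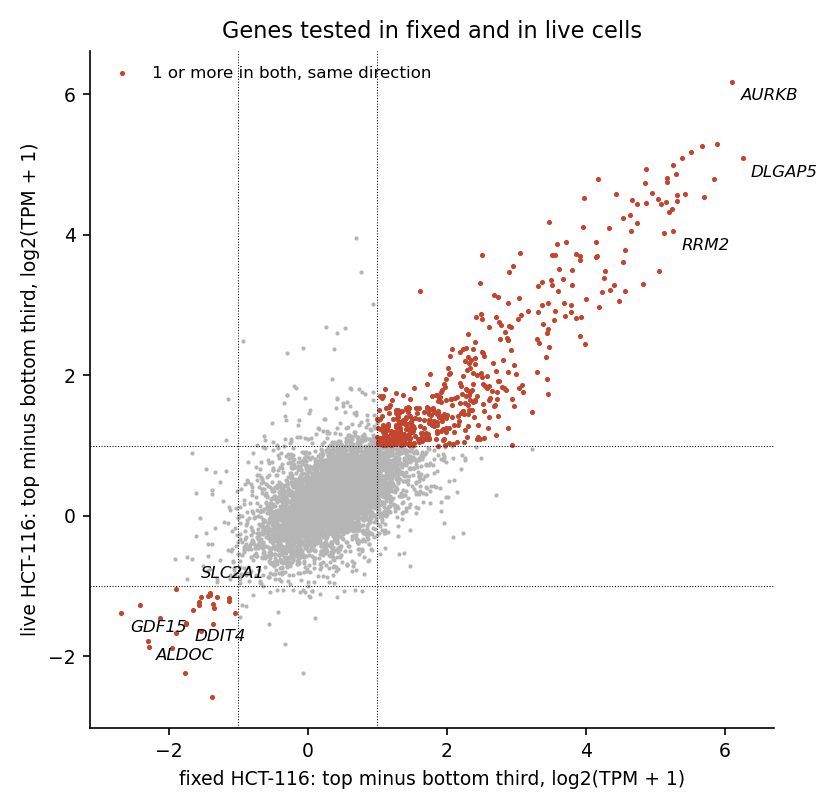
Each point is 1 of the 6673 genes compared in both treatments, placed by its difference of mean log2(TPM + 1) between high-score and low-score cells in fixed HCT-116 (horizontal) and in live HCT-116 (vertical). Red marks genes that differed by 1 or more in the same direction in both, 474 higher and 27 lower, and dotted lines mark 1 and -1. AURKB lies at 6.11 in fixed and 6.18 in live cells.

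Cells labelled HepG2, ranked the same way, are set beside these values. They come from 2 separate experiments by the study's methods, and as neither labels nor columns say which cell came from which, each treatment was ranked as 1 pool. The hepatocyte genes APOA1, FGB and SERPINA1 had mean levels of 0.00851, 0.0160 and 3.95 TPM in the 83 fixed cells, SERPINA1 in 28 of them, and the luminal breast markers GATA3, ESR1, KRT7 and PGR had 234, 27.1, 12.03 and 1.28 TPM, so the label was not used as a statement of cell type. In fixed cells 691 of 7306 genes were higher (9.46%) and 66 lower (0.903%), and in live cells 1353 of 7406 were higher (18.3%) and 86 lower (1.16%). In this line 1 column was listed with the same values as live and as fixed. Without it 617 and 70 genes were called in fixed and 1096 and 97 in live cells. AURKB differed by 6.30 in fixed and 5.86 in live cells, and the kinesin and spindle list had medians of 3.11 and 3.32. GDF15 differed by -0.74 and -0.98, ALDOC by -0.44 and 0.33, and DDIT4 by -2.31 and -1.998. The hypoxia-response list had a median of 0.45 over 15 genes in fixed and 0.37 over 16 genes in live cells, where the medians of all genes compared were 0.32 and 0.57. Of 6033 genes compared in both fixed lines, 974 were higher in HCT-116 and 609 in the other line, with 382 shared, 39.2% of the HCT-116 and 62.7% of the other genes. Of 52 and 37 lower genes, 7 were shared, 13.5% of the HCT-116 and 18.9% of the other genes. Differences between the lines were not tested.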

How the data were processed

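Per the labels and methods, the authors quantified Smart-seq2 reads against GRCh38 with kallisto 0.46.0 and summed transcripts to genes with tximport. The gene tables were deposited as TPM. The transcript tables hold values in steps that fit CPM, and total reads per cell were recovered from the step between these deposited CPM values, to the nearest 0.1 M (1e5 reads). Labelled fixed HCT-116 cells numbered 96, of which 92 have a column. Sorting selected singlets, and no doublet caller was run. Genes needed a mean of at least 5 TPM, and a difference of mean log2(TPM + 1) of 1 or more was called.

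The members and gene lists were chosen with earlier results of these data known, and the hypoxia-response list after the differences had been seen. Named genes are the 20 largest positive and 10 largest negative differences among genes seen in 50% or more of the cells, per list the 2 largest differences in either direction and the most abundant member, and CCNA2, CCNB2, CCND1, CCNE1, CCNE2, CDK1, CDKN1A, PCNA, RRM2, GAPDH and ACTB. Genes named outside this rule, in the marker checks and among the members of a list, were chosen after their values were seen. Transcript length and GC content came from GENCODE canonical transcripts, and promoters from RefSeq. Alternatives were the ratio of mean TPM, a pseudocount of 0.1, 2 rescalings, rankings within groups of like depth or detection, cells with at least 1 M reads, other group sizes, another scaling of the score, each score gene left out, other filters and thresholds, and, added after seeing the data, centring on all genes, leaving out the cell with the most genes and counting genes of equal values once. The computation was tested on simulated data. Python 3.11.15, pandas 2.3.3, NumPy 2.4.6 and SciPy 1.17.1 were used.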

Additional observations from a re-analysis of the deposited data

How the results depend on the processing

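Of the 1151 genes called, 2 changed sign by the ratio of mean TPM, 1 when cells were ranked within groups by total reads and 1 with 46 cells on each side, and none in the other settings with a value per gene. The number still called in the same direction was lowest with 46 cells on each side, at 508. None of the 61 called genes named by rule changed sign, but 9 of them came below 1 with 46 cells on each side, 7 when ranked within groups by genes detected and 6 relative to the median of all genes. Of the 52 named genes with a difference under 1, 22 changed sign in at least 1 setting. CCNE2 was 0.13 in the second of these and DDIT4 -0.98 in the first. As reported, 15% of the genes compared were higher and 1.25% lower in high-score cells. These shares became 8.88% and 2.87% by the ratio of mean TPM, 27.7% and 2.75% with a pseudocount of 0.1, 9.36% and 2.40% after rescaling by the median ratio, 7.45% and 3.69% relative to the median of all genes, 6.82% and 0.620% with 46 cells on each side, 34.7% and 4.24% at 1.5-fold, and 4.499% and 0.416% of 26671 genes with no filter on low values, where more genes were compared. With 23 cells on each side 1.97% were lower, and ranking within groups by genes detected gave 9.85% higher. With each score gene left out in turn, 14.6 to 15.2% were higher and 1.23 to 1.42% lower.

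With a pseudocount of 0.1, list medians were 4.95 for kinetochore, 5.85 for kinesin and spindle, 6.12 for cyclin and kinase, 3.34 for condensin and cohesin, and 1.63 for G1 to S genes. With 46 cells on each side the first 4 were 2.17, 2.86, 2.67 and 1.45. Ribosomal protein genes had -0.47 after rescaling and -0.55 relative to all genes, the respiratory chain -0.083 and -0.16, and ribosomal RNA -0.70 relative to all genes. Replication-dependent histones had -1.99 by the ratio of mean TPM and -0.014 with 46 cells on each side, and genes of p53 and the kinase inhibitors ran from -0.45 to 0.21. In all, 424 list medians under alternatives moved by less than the spread between cells. That spread is one of single cells and a loose limit for a list median, so the count does not show that the medians were stable. Why values moved between settings was not tested. No paired analysis was possible because the results come from no test and the cells carry no replicate that pairs them across groups. Depth, as low as 0.2 M reads in a cell, limits genes near 1 read per cell.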
